A study of Rattus norvegicus with 2 samples.

Results

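The peaks described here are those that the deposited annotation assigned to a microRNA gene. They were chosen by name: every peak whose nearest annotated gene start carries a symbol made of Mir or Mirlet followed by a digit, whatever its class, strength or distance. The rule took 239 of 28706 peaks (0.833%, 95% Wilson interval 0.734 to 0.944%) and 63 microRNA genes. A further 803 peaks, under 214 names, were assigned to gene models that the annotation types as miRNA but that carry only a clone or other identifier, and these are not members.

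The study immunoprecipitated sonicated chromatin from the myocardium of male Wistar rats whose abdominal aorta had been constricted by tying it to a wire above the renal arteries, a surgery that loads the heart with pressure. The antibody is labelled by vendor and catalogue number, and its target was taken from the series title as lactylation of lysine 18 of histone H3 (H3K18la), a mark made from lactate. The labels list 1 ChIP library and 1 input library of this model, both numbered 3, and the files used here hold the peaks of the ChIP library. How many animals gave the chromatin, whether tissue was pooled and whether any rat had vagal stimulation is not given in the sources used here. No library of rats without constriction was analysed, so the peaks describe 1 sample and no change with the surgery. With 1 library there is no replicate check, no p-value is given, and intervals cover counting error only.

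MicroRNAs are short RNAs that bind target messenger RNAs, mainly through their seed, the bases near the 5′ end, and lower the output of those messages. They are cut from a hairpin inside a longer primary transcript, which can be a host gene's intron, a long noncoding RNA or a transcript of its own. Neighbouring hairpins often share 1 primary transcript, and its start can lie far upstream of the hairpin that the annotation lists as the gene. The distances below run to the annotated microRNA start, which is therefore not always the site where transcription begins. A peak shows marked chromatin, and no microRNA level was measured here.

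The mature sequences below are those of the microRNAs on which the results turn, with some seed mates and cluster mates set beside them. They come from RefSeq (build GRCr8), which had an entry for 60 of the 63 names and a mature sequence for 58. The seed, bases 2 to 8 from the 5′ end, is in capitals. The first 5 are made by the 2 copies of the miR-23, miR-27 and miR-24 cluster, whose surroundings held the strongest peak and the largest number of peaks.
miR-23a-3p: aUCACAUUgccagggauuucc
miR-23b-3p: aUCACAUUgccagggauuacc
miR-27a-3p: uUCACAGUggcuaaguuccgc
miR-27b-3p: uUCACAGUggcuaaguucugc
miR-24-3p: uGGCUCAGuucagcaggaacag
miR-181c-5p: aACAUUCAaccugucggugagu
let-7c-5p: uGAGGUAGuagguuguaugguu
let-7a-5p: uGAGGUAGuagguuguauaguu
let-7i-5p: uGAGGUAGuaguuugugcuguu
miR-29b-3p: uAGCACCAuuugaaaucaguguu
miR-21-5p: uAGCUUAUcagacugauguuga
miR-34a-5p: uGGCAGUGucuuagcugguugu
miR-139-5p: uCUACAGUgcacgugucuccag
miR-28-5p: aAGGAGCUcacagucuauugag
miR-1b: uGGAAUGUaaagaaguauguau
miR-208b-3p: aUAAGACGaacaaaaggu
miR-208a-3p: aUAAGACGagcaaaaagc
miR-143-3p: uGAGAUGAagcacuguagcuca
miR-207: cUUCUCCUggcucuccucccuuu
miR-423-5p: uGAGGGGCagagagcgagacuuuu

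Among genes that share a seed, some carried a named peak and others did not. A peak takes only the name of the nearest start, so a cluster mate can take the peaks beside a hairpin. Mir23a and Mir23b share the seed UCACAUU and differ in the mature arm by U19A (positions counted from 1 at the 5′ end, the first-named sequence first), and both carried peaks. Mir27a and Mir27b, whose mature arms differ by C19U, carried none under their own names, although each is a cluster mate of a gene that did. Of 12 RefSeq genes with the let-7 seed GAGGUAG, 3 had a named peak (Mirlet7c2, Mirlet7a1 and Mirlet7i). A further 5 let-7 symbols had only a cluster mate with one. let-7c differs from let-7a by G19A and from let-7i by G12U, A17G, U18C and G19U. Of the 4 genes with the miR-29 seed AGCACCA, Mir29b1 and Mir29b2 had peaks and Mir29a and Mir29c had none under their names. Mir29a is a cluster mate of Mir29b1 and Mir29c of Mir29b2. Mir208b had a peak and its seed mate Mir208a had none.

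The labelled tissue was checked against marker genes. A peak carried the name of 9 of 12 cardiomyocyte markers (34 peaks, with Myh6, Ryr2 and Ttn at 0) and of 7 of 8 endothelial markers (54 peaks, with Pecam1 at 0). The counts were 1 of 5 fibroblast, 1 of 4 smooth muscle and 1 of 4 immune markers, and 1 of 4 each for hepatocyte and brain, near the 26.5% of all protein-coding symbols that carried a peak. Which cell type a microRNA peak came from was not tested.

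By strength and width the microRNA-named peaks resembled the list as a whole. The fold enrichment, the authors' own ratio of a peak to its local background, had a median of 4.18 (interval of the median 3.9998 to 4.30, quartiles 3.64 and 4.73), against 4.13 (quartiles 3.62 and 4.79) over all peaks. Median width was 375 bp in both. A fold enrichment of at least 6 was reached by 15 members (6.28%, interval 3.84 to 10.1%), against 6.31% of all peaks, so the share of strong peaks was that of the background. At least 10-fold was reached by 2 members, against 28 peaks or 0.0975% of the whole list, and both are named Mir23a. The 20 strongest members belonged to 16 genes.

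Most members lay in introns or between genes. Introns held 129 (54.0%, interval 47.6 to 60.2%) against 43.8% of all peaks. Without the 3 genes of most peaks (Mir23b, Mirlet7c2 and Mir3075) the intron share was 49.4% (interval 42.1 to 56.8%). Intergenic sequence held 87 (36.4%, interval 30.6 to 42.7%) against 41.1%. Promoter-TSS peaks, those the annotation places at a transcript's start, numbered 10 (4.18%, interval 2.29 to 7.53%), against 9.78% of all peaks. Exons held 2 (0.837%), against 3.54% of all peaks. Transcription termination sites (TTS), the annotation's class for a transcript's end, held 11 (4.60%, interval 2.59 to 8.05%), against 1.67% of all peaks. Start and end lie close together on a hairpin: 9 of the 11 TTS peaks refer to the microRNA's own transcript, as do 9 of the 10 promoter-TSS peaks, and the other promoter-TSS peak, that of Mir23a, refers to the transcript of its cluster mate Mir24-2.

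**Figure D1:**
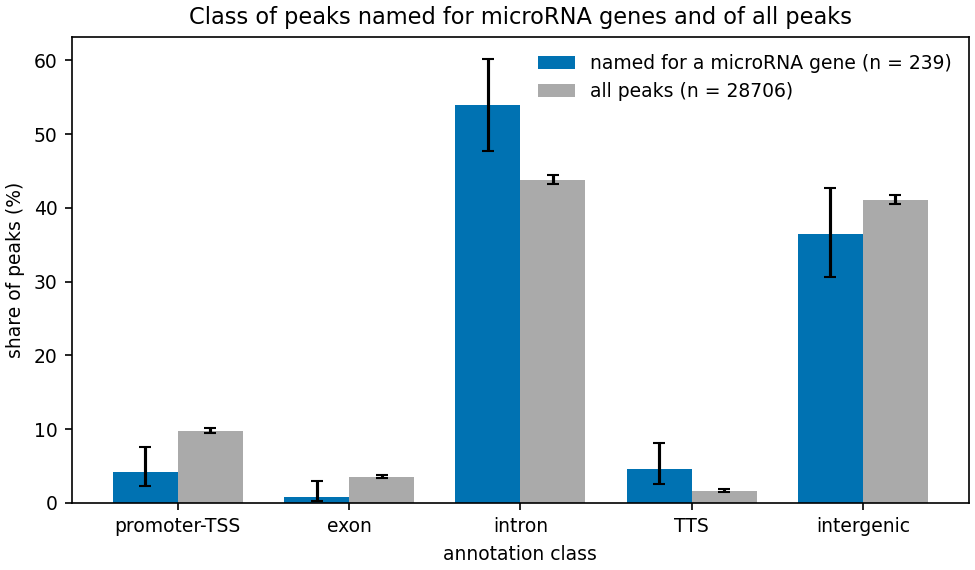
Share of peaks (%, vertical axis) by annotation class for the 239 peaks named for microRNA genes (blue) and for all 28706 peaks (grey), with 95% Wilson intervals as error bars. The blue bar stands higher for introns (54.0% against 43.8%) and TTS (4.60% against 1.67%) and lower for promoter-TSS (4.18% against 9.78%).

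The median distance from peak centre to start was 21.2 kb, against 14.5 kb over all peaks, 12.1 kb for peaks of protein-coding genes and 25.1 kb for the peaks of miRNA models under other names. It was 15.4 kb without Mir23b, Mirlet7c2 and Mir3075, the 3 genes of most peaks, so the larger median rested on those genes. Within 1 kb of the start there were 20 members (8.37%, interval 5.48 to 12.6%), against 19.4% of all peaks. They consisted of 10 promoter-TSS and 10 TTS peaks at 16 genes. Beyond 10 kb lay 165 members (69.04%), against 57.4% of all peaks. Without the 3 genes of most peaks this share was 62.6%. Beyond 100 kb lay 19 members (7.95%), near the 6.78% of all peaks. Only 7 members (2.93%) covered the annotated start itself, against 6.21% of all peaks.

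Members lay more often upstream of the start than downstream. The centre was upstream in 170 (71.1%, interval 65.1 to 76.5%), against 43.2% of all peaks and 51.7% of peaks of miRNA models under other names. This share rested in large part on a few genes with many peaks. The 7 genes with at least 10 peaks gave 97 of the 170, and in Mir23b, Mirlet7c2 and Mir29b1 all 64 peaks were upstream. Without the 3 genes of most peaks the share was 63.8%. Counting each gene once by its strongest peak, 33 of 63 (52.4%, interval 40.3 to 64.2%) were upstream.

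**Figure D2:**
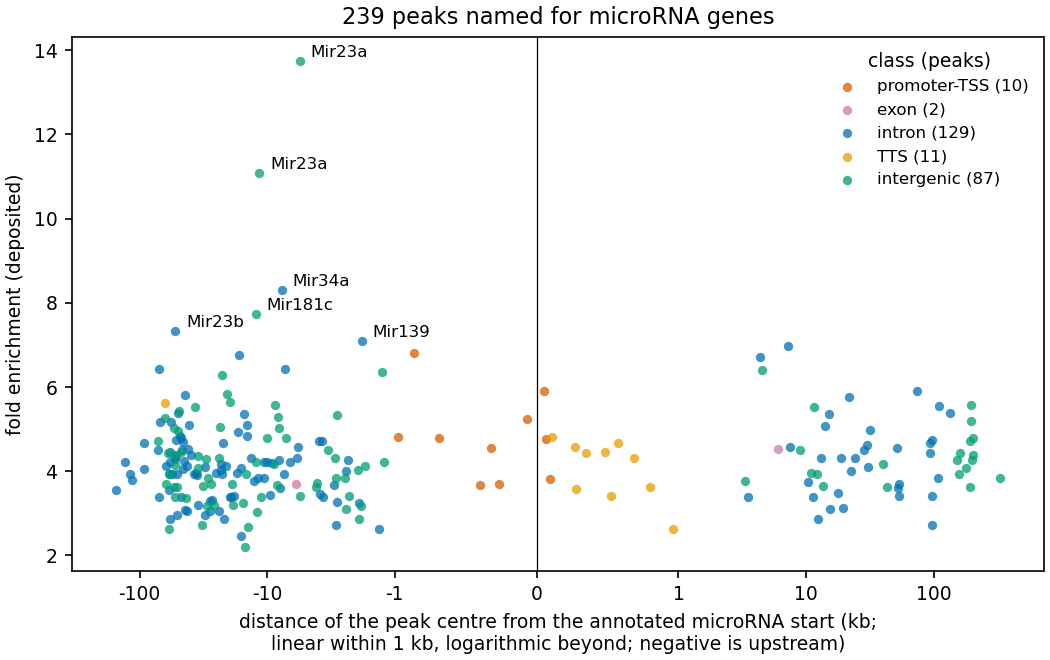
Fold enrichment (vertical axis) of each of the 239 members against the distance in kb of its centre from the annotated microRNA start (horizontal axis, negative is upstream, linear within 1 kb and logarithmic beyond), coloured by class. Points of at least 7-fold are labelled; they all lie upstream, led by 2 Mir23a peaks at 13.7-fold and 11.1-fold, while the points within 1 kb are promoter-TSS and TTS peaks.

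Peaks were unevenly spread over the genes, as they were over all names in the annotation. A single peak was found for 28 genes (44.4%, against 45.0% of all names), 2 peaks for 12, and 3 or more for 23. There were 3.79 peaks per microRNA gene, against 3.52 per name over all named peaks. The 7 genes with 10 or more peaks (11.1% of the genes, against 7.23% of all names in the annotation) held 116 peaks, or 48.5% of the members. Members lay on 21 chromosomes. Chromosome 17 had 37 (15.5%, against 3.98% of all peaks), of which 35 were at the Mir23b and Mir3074 locus. Chromosome 7 had 23 (9.62%, against 6.10%), and X had 1, that of Mir3589 (0.418%, against 0.815%). Of 465 microRNA symbols in the RefSeq gene table, 62 (13.3%) carried a peak, against 26.5% of the table's protein-coding symbols. The table, of build GRCr8, places 39 of the 62 inside a protein-coding gene, 8 inside a long noncoding RNA only, and 14 in neither. It puts the remaining one, Mir193b, on chromosome 10, while its 2 peaks were annotated on chromosome 14, so its host was not used.

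**Figure D3:**
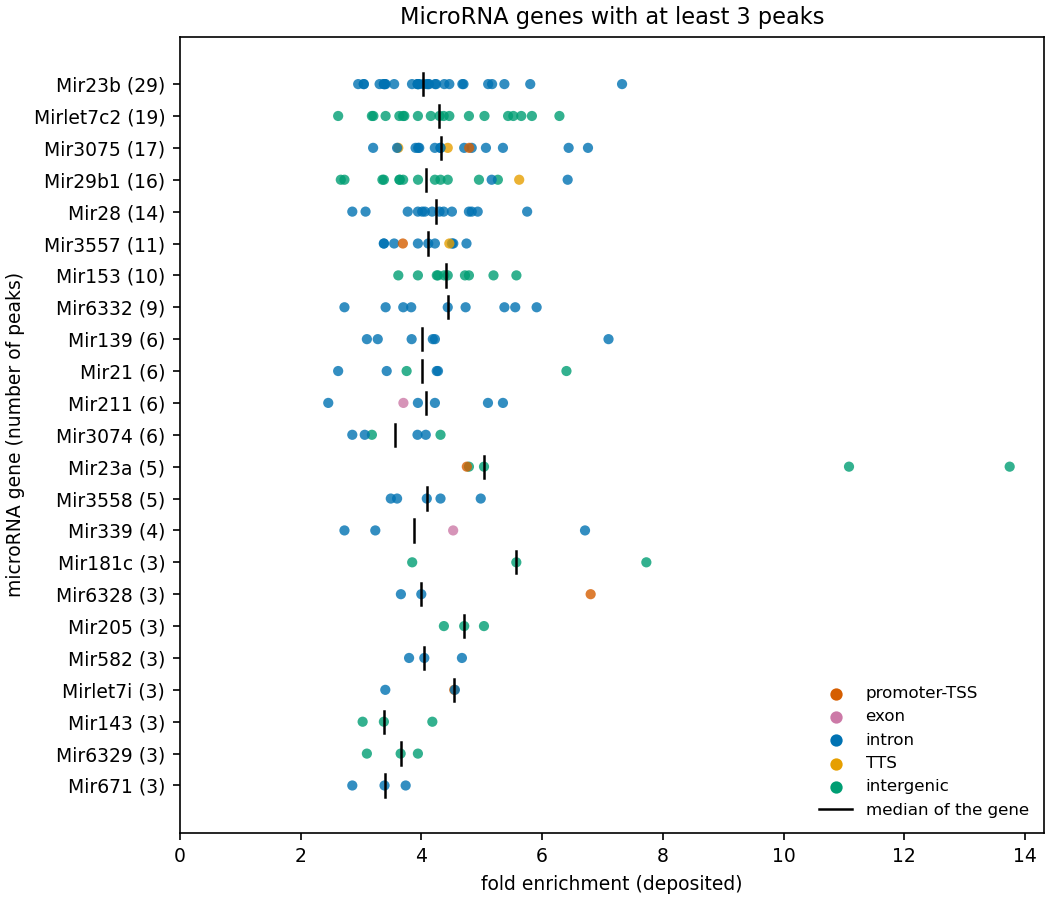
Fold enrichment (horizontal axis) of every peak of the 23 microRNA genes with at least 3 peaks, 1 row a gene with its number of peaks, coloured by class, with a black line at the gene's median. Gene medians lie between 3.38 and 5.57, and most rows reach no higher than 7; the 2 points above 10 belong to Mir23a.

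The strongest members stood in a run of wide peaks between Mir181c and Mir23a on chromosome 19. Mir23a, Mir27a and Mir24-2 lie within 10 kb of each other and are known as a cluster made from 1 primary transcript. miR-23a and miR-24 have been studied in cardiac hypertrophy and miR-27a in the vessel wall. Mir181c, paired with Mir181d, belongs to a family known from lymphocytes and from mitochondria of the heart. In rn6 the annotated starts are at 25290316 on the minus strand for Mir181c and 25318582 on the plus strand for Mir23a, so the genes point away from each other across 28.3 kb.

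Between these starts lay 7 whole peaks that covered 46.0% of the interval (13.0 kb), and 3 of the 7 reached at least 6-fold. The strongest, 13.7-fold, spanned 4333 bp (25310887 to 25315219) with its centre 5529 bp upstream of Mir23a. By fold enrichment it ranked first of all 28706 peaks. Its −log10 q from the peak caller was 40.2, against a largest value of 432.6 in the list. The next of the run, 11.1-fold over 2104 bp (25306031 to 25308134), was centred 11500 bp upstream and ranked 8 by fold enrichment. Small peaks of 4.79-fold (25308336 to 25308562) and 5.04-fold (25310300 to 25310664) stood between these wide ones.

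The 3 peaks nearer to Mir181c formed the other side of the same run. They reached 7.73-fold over 2930 bp (25301044 to 25303973), 5.57-fold over 2830 bp (25297632 to 25300461) and 3.85-fold over 200 bp (25292683 to 25292882). Fold enrichment thus fell along the run from Mir23a towards Mir181c among its 4 wide peaks. The name changes from Mir181c to Mir23a between the peaks of 7.73-fold and 11.1-fold, where the nearer start changes.

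At the Mir23a hairpin itself the signal was smaller. A peak of 4.75-fold (25318459 to 25318838) covered the annotated start, and a peak named Mir24-2 of 2.62-fold spanned 1220 bp beyond it (25319216 to 25320435). The 9 peaks from Mir181c to Mir24-2 covered 52.6% of 27.8 kb, and no peak with another name stood among them. In the gene table the run of microRNAs lies between Zswim4 and Nanos3, and neither name was carried by a peak.

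**Figure D4:**
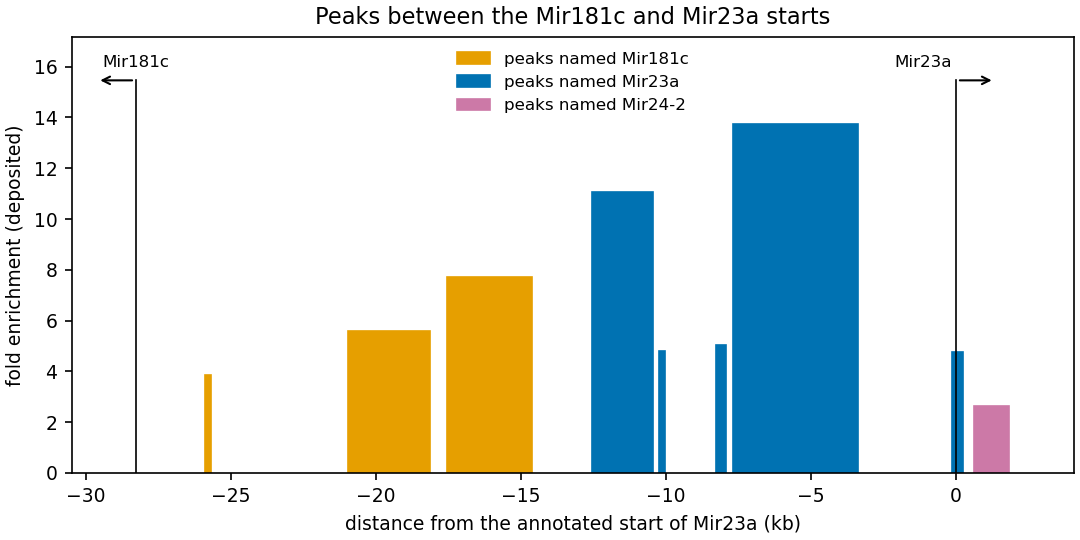
The 9 peaks at Mir181c, Mir23a and Mir24-2 as bars, with the peak's extent on the horizontal axis (kb from the annotated Mir23a start) and its fold enrichment as height; vertical lines with arrows mark the 2 annotated starts and their direction. The 2 wide bars of 13.7-fold and 11.1-fold stand upstream of Mir23a, and the bars at and beyond its start reach 4.75-fold and 2.62-fold.

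The paralogous cluster on chromosome 17 had the most peaks and modest ones. Mir23b, Mir27b and Mir24-1 are known from endothelial cells and lie inside the gene of the aminopeptidase Aopep, and Mir3074 is encoded on the strand opposite Mir24-1. Mir23b had 29 peaks from 670187 to 819704, all in introns 5 to 14 of the transcript that the annotation names Npepo, an older symbol of Aopep, and all upstream of its start at 823222. Their fold enrichment ran from 2.95 to 7.32 with a median of 4.03, and 5 of the 29 reached at least 5-fold. The strongest (769902 to 771848) was 1947 bp wide and 52.3 kb upstream, followed by 5.80-fold (778540 to 779097) at 44.4 kb and 5.38-fold (772951 to 773498) at 49.998 kb. Npepo itself was the name of 12 further peaks, up to 5.68-fold.

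Mir3074 took the peaks on the far side of the cluster. Its 6 peaks ran from 2.86-fold to 4.32-fold, the strongest at 826817 to 827238. Of these, 4 lay in introns of an unnamed transcript, and the gene table lists Fancc, Ptch1 and Fbp1 as coding neighbours of the cluster. From the first Mir23b peak to the last Mir3074 peak 35 peaks covered 9.62% of 177.8 kb. From Mir181c to Mir24-2, 9 peaks covered 52.6% of 27.8 kb, the Mir181c peaks included. The 2 stretches are of unlike length and are bounded by the peaks that carry these names, so their numbers of peaks are not compared. Peaks at the intergenic copy of the cluster were up to 4333 bp wide and 13.7-fold. Those at the intronic copy were up to 1947 bp wide and 7.32-fold.

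**Figure D5:**
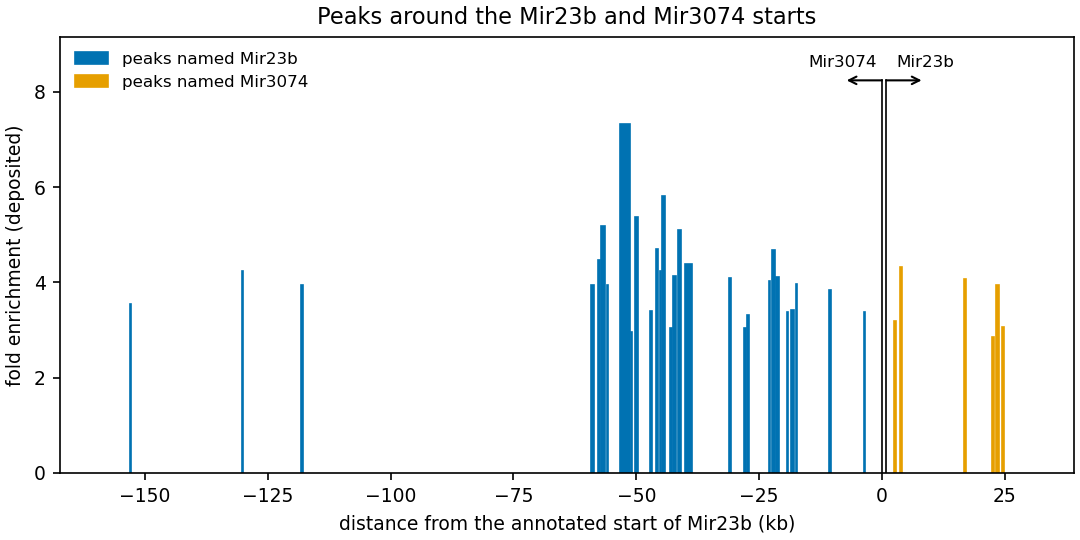
The 29 Mir23b and 6 Mir3074 peaks as bars, with the peak's extent on the horizontal axis (kb from the annotated Mir23b start) and its fold enrichment as height; vertical lines with arrows mark the 2 annotated starts, 0.834 kb apart, and their direction. The tallest bar, 7.32-fold, stands 52.3 kb upstream of Mir23b, and no Mir3074 bar exceeds 4.32-fold.

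The let-7 family, known for its high levels in differentiated cells, had most of the peaks under its own names at 1 locus. Of 11 let-7 symbols, 3 had a named peak and 5 only a cluster mate with one. Mirlet7g had none, while its hosts Rpl29 and Wdr82 were the names of 9 peaks. Mirlet7c2, cluster mate of Mirlet7b, had 19 peaks on chromosome 7 (126531046 to 126586271), all intergenic and upstream, from 2.62-fold to 6.29-fold with a median of 4.30. The strongest lay at 126567185 to 126567739, 22.8 kb upstream, and the next at 126569347 to 126569791 (5.83-fold) and 126570455 to 126570779 (5.66-fold). These peaks stood close together about 20 kb before the hairpin. Peaks of nearly the same strength, 5.52-fold and 5.44-fold, lay farther off, 37.1 kb and 48.9 kb upstream. In the gene table Mirlet7c2 lies between LOC134479761 and Ppara, the gene of a receptor that drives fatty acid oxidation genes. Ppara was the name of 4 other peaks up to 5.56-fold. Leaving out other microRNA names, the nearest peak of another name belonged to Wnt7b for most of the 19 peaks, from 10.3 kb away. For the others it belonged to Ppara, from 33.0 kb away. Mirlet7i differed in that a peak of 4.55-fold, 1349 bp wide, covered its start (66801734 to 66803082). Its other 2 peaks, 4.56-fold and 3.40-fold, lay more than 50 kb downstream in the last intron of a Ppm1h transcript. Mirlet7a1, cluster mate of Mirlet7f-1 and Mirlet7d, had 2 intergenic peaks of 5.29-fold and 2.21-fold, 8.24 kb and 15.0 kb upstream.

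Several microRNAs studied in cardiac growth and fibrosis had peaks. The miR-29 family is known to lower collagen messages. Mir29b1, cluster mate of Mir29a, had 16 peaks on chromosome 4 (58356494 to 58414937), all upstream, from 2.67-fold to 6.42-fold with a median of 4.09. The strongest (58413565 to 58414937) was also the farthest, 69.9 kb upstream, in an intron of the unnamed model AABR07060133.1. Mir29b2, cluster mate of Mir29c, had a single peak of 4.51-fold 3.33 kb upstream.

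Mir21 encodes a microRNA known from cardiac fibroblasts and from pressure overload. Its 6 peaks on chromosome 10 had fold enrichments of 6.40, 4.28, 4.26, 3.76, 3.43 and 2.62. The strongest (73897343 to 73898307) lay 4476 bp downstream of the start, and 4 of the other 5 lay upstream, in the last introns of an unnamed transcript. In the gene table Mir21 lies beside Vmp1, whose name no peak carried.

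Mir34a, a target of p53 known from the ageing heart, had 1 peak, the third strongest member at 8.31-fold. It spanned 2928 bp (chromosome 5, 167083411 to 167086338) in an intron of an unnamed transcript, 7617 bp upstream. Mir34b and Mir34c had none. Mir30a had a peak of 3.24-fold and Mir30d of 3.85-fold, both intergenic and over 10 kb upstream. Mir497, cluster mate of Mir195, had intergenic peaks of 4.11-fold and 3.41-fold that stood 1.71 kb and 1.21 kb from the nearest peak of Bcl6b, a transcriptional repressor. That gene's promoter-TSS peak reached 6.82-fold.

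The muscle microRNAs had 3 peaks in all. Of 8 symbols (Mir1, Mir1b, Mir133a1, Mir133b, Mir206, Mir208a, Mir208b and Mir499a), 2 had a peak, against 13.3% of all microRNA symbols in the gene table, and neither exceeded 5-fold. Mir1b, which shares its seed with the muscle-specific Mir1, had a promoter-TSS peak of 4.81-fold (chromosome 3, 175768618 to 175768853) 981 bp upstream and a TTS peak of 4.32-fold (175770108 to 175770696) 686 bp downstream. Mir208b lies in Myh7, the gene of the β-myosin heavy chain. Its peak of 3.38-fold (chromosome 15, 33636022 to 33636221) was 200 bp wide, 3500 bp downstream of the start and in intron 35 of the Myh7 transcript. Myh7 was the name of 4 other peaks up to 5.38-fold. No peak carried the name of Mir208a or of its host Myh6. Mir499a had none, and its host Myh7b had 1 peak of 4.18-fold.

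The groups, muscle and let-7 included, held 107 microRNA symbols, of which 16 (14.95%) had a peak, close to the 13.3% of all microRNA symbols in the gene table. A further 17 had only a cluster mate within 10 kb with one. Of the 22 hypertrophy and fibrosis symbols, 8 (36.4%) had a peak (32 peaks in all) and 7 more only a cluster mate with one. The groups were chosen with earlier results of these data known, so no group's share can serve as a test of enrichment. Of 11 endothelial symbols, 1 (Mir23b) had a peak, while the host of Mir126a and Mir126b, the endothelial gene Egfl7, had 5 peaks up to 7.002-fold under its own name. Of the 2 smooth muscle symbols, Mir143 had 3 intergenic peaks, of 4.18-fold, 3.38-fold and 3.03-fold, from 8.91 to 11.9 kb upstream, and its cluster mate Mir145 had none. Of 11 inflammation and blood symbols, 1 (Mir181c) had a peak.

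In the remaining groups no symbol had a peak. These were 13 symbols of Mir17-92 and its paralogues, 13 brain, 8 embryonic stem cell, 5 epithelial and 4 liver symbols, the hypoxia-induced Mir210 and the pancreatic Mir375. Of the brain symbols, Mir9-2 had only a cluster mate with one. That mate, Mir3597-2, had an intronic peak of 4.67-fold 94.2 kb downstream. Mir205, known from epithelia and in none of these groups, had 3 intergenic peaks from 4.37-fold to 5.04-fold, more than 50 kb upstream. Mir153, known from neurons and also in none of the groups, had 10 peaks and is described below. Absence of a peak means no call under that name at this depth, which the files do not give.

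The other genes with long runs of peaks were Mir3075, Mir28, Mir3557, Mir153 and Mir6332. Mir3075 had 17 peaks on chromosome 16 within Zmiz1, the gene of a transcriptional coregulator, with a median of 4.32-fold. The strongest was 6.76-fold (1805353 to 1806778), and a peak of 6.44-fold spanned 4172 bp (1813510 to 1817681), the second widest member. Zmiz1 was the name of 23 more peaks, up to 8.18-fold, so the name Mir3075 took part of a run that goes on under the host's name. Mir28 had 14 peaks in introns 6 to 8 of Lpp, a gene of a focal adhesion protein, from 2.86-fold to 5.75-fold, and Lpp had 16 of its own. Their strongest was downstream (79358593 to 79358876) and 12 of the 14 were upstream.

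Mir3557, which overlaps Mir378 in the gene table and lies in Ppargc1b, the gene of a coactivator of mitochondrial genes, had 11 peaks on chromosome 18. They ran from 3.38-fold to 4.75-fold, 9 of them in intron 1 of an unnamed transcript. A promoter-TSS peak of 3.69-fold lay 265 bp upstream and a TTS peak of 4.46-fold 484 bp downstream. No peak carried the name Ppargc1b. Mir6332 had 9 intronic peaks, 53.8 to 133.9 kb downstream, up to 5.91-fold, and its table host Rere, a corepressor gene, had none by name. Mir153, known from neurons, had 10 intergenic peaks, up to 5.57-fold, and all were 151.3 to 205.1 kb downstream. Its table host is Ptprn2, and the nearest peaks of another name belonged to Rapgef5.

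In Mir139 the strongest peak stood close to the hairpin. Mir139 lies in Pde2a, which encodes a phosphodiesterase that breaks down cyclic nucleotides in the heart. Its peak of 7.10-fold (chromosome 1, 166587244 to 166588231) was 1808 bp upstream, in intron 2, while its other 5 peaks ran from 3.10-fold to 4.23-fold. Pde2a had 7 peaks of its own up to 5.11-fold.

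Shorter runs were found at other microRNA genes. Mir211 had 6 peaks in Trpm1, a cation channel gene, from 2.46-fold to 5.35-fold, 1 of them in exon 3, while Trpm1 itself had 5 peaks up to 8.37-fold. Mir3558 had 5 intronic peaks up to 4.98-fold, 3 of them in Ttc7a, whose own single peak reached 7.26-fold. Mir339 had 4 peaks in the transcript LOC498154 on chromosome 12. One of 6.71-fold (17372601 to 17374135) lay in an intron, and one of 4.53-fold (17374604 to 17375402) was the other exon peak. Mir582, Mir671 and Mir6329, which the gene table places in Pde4d, Chpf2 and Rdx, had 3 peaks each, the highest of them 4.67-fold. The Mir582 and Mir671 peaks lay in introns of unnamed transcripts, and the Mir6329 peaks were intergenic.

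Among peaks that covered an annotated start, that of Mir207 was the strongest. The 7 were 5 promoter-TSS and 2 TTS peaks, at Mir207, Mir423, Mir3584, Mir23a, Mirlet7i, Mir760 and Mir6334. Mir207 lies in Dnaja1, the gene of a heat shock protein co-chaperone. Its peak of 5.91-fold (chromosome 5, 57028698 to 57029127) began 206 bp beyond the end of Dnaja1's own promoter-TSS peak of 3.66-fold (57028024 to 57028491), which was centred 210 bp before that gene's start. Neighbouring peaks at the start of 1 host were thus divided between 2 names.

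The RefSeq promoter of Dnaja1 is printed below (build GRCr8, plus strand, 250 bases before to 50 after the start). Both peaks lie close to the host's start, but by rn6 coordinates the Mir207 peak lies outside this window. The matches marked below are therefore not placed in the Mir207 peak. The GRCr8 start may differ from that of rn6. Capitals mark matches to the heat shock motif GAANNTTC and to the GC box GGGCGG, searched on both strands.
Dnaja1: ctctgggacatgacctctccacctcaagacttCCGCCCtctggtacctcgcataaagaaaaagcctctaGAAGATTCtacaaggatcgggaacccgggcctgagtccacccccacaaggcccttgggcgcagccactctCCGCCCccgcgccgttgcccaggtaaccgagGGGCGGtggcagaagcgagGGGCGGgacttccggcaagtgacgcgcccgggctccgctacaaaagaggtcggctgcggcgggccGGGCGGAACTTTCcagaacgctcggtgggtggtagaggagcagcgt

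The window is 65% G and C. It holds 2 matches to GAANNTTC, a motif found in 8.59% of 33469 RefSeq promoters of the same length. It holds 5 matches to GGGCGG, found in 33.1% of them, and the last of these overlaps the second GAANNTTC match. It holds no TATAAA (14.2% of promoters) and no CCAAT (37.5%). These are matches of letters only.

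The other start-covering peaks were weaker. Mir423, in Nsrp1, had 5.25-fold (chromosome 10, 63097930 to 63098659), centred 66 bp before the start, and no peak carried the host's name. Mir3584 in Itprip had 4.81-fold (chromosome 1, 271275724 to 271276008), Mir760 had 3.81-fold (chromosome 2, 225873081 to 225873597) and Mir6334 had 3.59-fold (chromosome 3, 150911033 to 150911775). The Mir6334 peak stood 249 bp from the promoter-TSS peak of its host Tp53inp2, a gene of autophagy, which reached 6.86-fold.

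Peaks just short of a start included some stronger ones. Mir6328 in Ppp1r18 had a promoter-TSS peak of 6.80-fold over 1697 bp (chromosome 20, 3393102 to 3394798), 202 bp from a Ppp1r18 peak of 6.11-fold. Mir6326, a neighbour of Mir22, had an intergenic peak of 6.36-fold 1265 bp upstream (chromosome 10, 62297627 to 62298521), and the promoter-TSS peak of Wdr81 9.94 kb away had 4.55-fold. Mir6333 had 3.67-fold 403 bp upstream. TTS peaks within 1 kb stood also at Mir107 in Pank1 (4.67-fold), Mir193a (4.57-fold) and Mir138-2 (3.41-fold). Mir6215, with 2 intronic peaks, reached 6.97-fold (chromosome 5, 158053298 to 158054495) 7164 bp downstream, in a transcript named Tas1r2 in the annotation.

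The genes not yet described had 1 or 2 peaks each. Among them, Mir99b, cluster mate of Mirlet7e, had intergenic peaks of 5.33-fold and 3.64-fold, and Mir3120, cluster mate of Mir199a2 and Mir214 in Dnm3, had an intronic peak of 2.95-fold. Their strongest, 5.53-fold, was that of Mir365b and their weakest, 2.86-fold, that of Mir130a, which are both named for these values.

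A peak with another name, microRNA names included, lay within 10 kb of 41 members (17.2%, interval 12.9 to 22.4%), against 10.9% of all named peaks. The median gap to such a peak was 37.7 kb, against 50.2 kb over all named peaks. Leaving out other microRNA names, it lay within 10 kb of 30 members (12.6%). Of the 131 intron and exon peaks, 91 lie in a transcript to which the annotation gives a name. The farthest members were Mir3072 at 328.4 kb, with 3.83-fold, and Mir153 at 205.1 kb. For such peaks the name says only which annotated start is nearest.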

How the data were processed

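ChIP-seq peaks of 1 myocardial library were analysed. The submitters' processing notes name Bowtie2 (alignment software), MACS2 (a peak caller), HOMER (annotation), read and file tools (FastQC, SAMtools, Trim Galore, deepTools) and rat build rn6; their versions are not given in the sources used here. Fold enrichment is the ratio to local background that the authors deposited. The deposited −log10 p and q come from the peak caller, per the file headers. In each of the 28706 peaks the score the authors deposited is −log10 q multiplied by 10 and truncated, and the largest q was 0.0493. Depth is unknown, since the files give no totals, and whether the input library served as background is not given in the sources used here.

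Annotation rows were joined to peaks by peak name. Shares have 95% Wilson intervals and the median an order-statistic interval, computed in Python 3.11.15 with pandas 2.3.3 and scipy 1.17.1 and checked on simulated data. Distances are those of the annotation. The rn6 start and strand of a microRNA were worked out from the centres and distances of at least 2 peaks, for 35 genes. The RefSeq gene table (GRCr8) was used only for names, hosts and neighbours, and 62 of 63 names matched. A cluster mate is a listed microRNA within 10 kb in that table.

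A microRNA was named if its strongest peak was among the 20 strongest, if it had a promoter-TSS, exon or TTS peak, a peak within 1 kb or at least 3 peaks, if its peak was among the 3 widest, nearest or farthest, or if it belonged to a group or cluster with a peak. Mir365b, Mir130a and the farther neighbours fall outside it and were named after their values were seen. Members, groups and lists were chosen with earlier results of these data known. Alternatives changed the q, fold enrichment and distance limits, merging and the unit counted.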

Additional observations from a re-analysis of the deposited data

How the results depend on the processing

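No paired analysis was possible because only 1 library has values here. The cause of the changes below is the construction of each alternative, which keeps fewer, more or merged peaks. The count of 239 peaks became 76 at −log10 q of at least 5, 135 at a fold enrichment of at least 4, 74 within 10 kb of the start and 155 after merging peaks closer than 1000 bp. It became 1042 when every peak of gene type miRNA was taken, an alternative chosen after seeing the data. The 63 genes became 31 at −log10 q of at least 5, and the 16 group symbols with a peak became 9. The 20 peaks within 1 kb became 6 at −log10 q of at least 5, 13 at a fold enrichment of at least 4 and 40 with a 3 kb window. The median fold enrichment of 4.18 became 5.17 at −log10 q of at least 5 and 4.61 over each gene's strongest peak. The 5 class shares stayed within their intervals under the alternatives run, although the intron share without the 3 genes of most peaks came closer to that of all peaks. Without replicates or depth, no peak's reproducibility could be assessed, and a peak's name can hide a nearer unannotated start.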
